A study of Mus musculus with 6 samples.

Results

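Hepatic mRNA was sequenced from 3 WT and 3 *Pai-1*+/- mice, and 8 genes known to answer to glucocorticoids were followed in it. These were *Fkbp5*, *Tsc22d3*, *Sgk1*, *Klf9*, *Errfi1*, *Zbtb16* and the metallothioneins *Mt1* and *Mt2*. They were taken by symbol, and all 8 were found among the 24421 genes of the table that the authors deposited. The labels describe C57BL/6 livers from mice aged 21 weeks with free access to food, and the study kept both genotypes on standard chow. The study names the substrain C57BL/6 J and gives a slightly younger age than the labels. The *Pai-1*+/- mice carry 1 null allele of the gene for plasminogen activator inhibitor-1 in every cell, and they came from crosses of *Pai-1*-/- with WT mice. The labels name the sex for the WT mice, and the study describes all mice as male. The study asked what PAI-1 does in hepatic lipid metabolism, and the heterozygous mice served as a genetic counterpart to a PAI-1 inhibitor, whose effects on expression may come from other targets.

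The values given here are means over all libraries of both genotypes. The count table holds 6 columns headed by numbers that no label explains, so no column could be assigned to a mouse or a genotype. A difference between *Pai-1*+/- and WT livers is therefore not reported for any gene, and no value per mouse, SD or test accompanies the levels. The unit is the mean normalized count, which is the number of reads of a gene after each library was scaled to a common size, averaged over the libraries. With no spread between mice, neighbours in an order of levels cannot be said to differ.

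Glucocorticoids act through the glucocorticoid receptor, a transcription factor that waits in the cytoplasm in a complex with heat shock protein chaperones. Once the hormone binds, the receptor enters the nucleus and binds glucocorticoid response elements, which are paired copies of a short half-site facing each other. In the liver the receptor induces enzymes of gluconeogenesis and amino acid breakdown and shares many targets with the circadian and fasting programmes. Metallothioneins are small proteins rich in cysteine that bind zinc and copper, and their genes are induced by metals through the factor MTF1 as well as by glucocorticoids.

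The promoter sequences of the members were searched for exact copies of these elements close to a transcript start. RefSeq on GRCm38.p6, the same assembly as the mm10 genome to which the authors aligned, gave 15 windows of 300 bases for 7 of the members, each running from 250 bases before a start to 50 after it. A window is shown for *Sgk1* because it alone among the members with a window held an exact copy of the paired element. Those of *Mt1* and *Mt2* are shown because they held the most metal response cores. *Errfi1* is shown because it was the most abundant member. In the *Sgk1* window at chr10:21993640-21993939, plus strand, capitals mark the half-sites AGAACA and TGTTCT with 3 bases between them. In the windows of *Mt1* at chr8:94178839-94179138 and *Mt2* at chr8:94172368-94172667, both on the plus strand, they mark the metal response cores TGCACNC and TGCGCNC on either strand. In the window of the second *Errfi1* start at chr4:150854820-150855119, plus strand, they mark the cAMP response element TGACGTCA.
Sgk1: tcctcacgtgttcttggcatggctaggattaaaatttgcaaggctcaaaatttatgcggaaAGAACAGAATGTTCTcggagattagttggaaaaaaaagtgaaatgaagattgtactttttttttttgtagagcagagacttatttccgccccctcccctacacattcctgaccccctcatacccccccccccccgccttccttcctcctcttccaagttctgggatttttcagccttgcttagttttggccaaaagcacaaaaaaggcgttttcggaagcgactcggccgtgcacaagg
Mt1: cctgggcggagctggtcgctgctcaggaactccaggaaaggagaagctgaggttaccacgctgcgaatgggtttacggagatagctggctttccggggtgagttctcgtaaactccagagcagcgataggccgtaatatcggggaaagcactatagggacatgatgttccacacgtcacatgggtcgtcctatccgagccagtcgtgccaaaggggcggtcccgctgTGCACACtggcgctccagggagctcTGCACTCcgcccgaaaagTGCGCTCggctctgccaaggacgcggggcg
Mt2: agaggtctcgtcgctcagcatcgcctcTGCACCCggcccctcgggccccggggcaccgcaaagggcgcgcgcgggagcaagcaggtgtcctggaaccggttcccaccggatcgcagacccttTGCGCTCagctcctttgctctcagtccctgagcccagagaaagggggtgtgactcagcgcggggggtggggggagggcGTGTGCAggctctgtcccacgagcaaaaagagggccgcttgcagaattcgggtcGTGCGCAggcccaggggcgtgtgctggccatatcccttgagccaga
Errfi1: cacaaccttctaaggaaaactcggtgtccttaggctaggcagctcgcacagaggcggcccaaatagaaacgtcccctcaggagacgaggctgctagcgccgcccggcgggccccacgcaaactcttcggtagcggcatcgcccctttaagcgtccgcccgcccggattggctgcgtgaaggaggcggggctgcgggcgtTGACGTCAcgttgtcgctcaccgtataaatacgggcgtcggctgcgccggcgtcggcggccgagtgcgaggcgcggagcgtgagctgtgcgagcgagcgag

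All windows were searched on both strands for the same elements. Only exact copies of each pattern were counted, so an element with a changed base would be missed. The paired glucocorticoid element was present in 3 of 32851 mouse windows (0.00913%), and the window of the fifth *Sgk1* start was one of them, with the match beginning 189 bases before the start. The single half-site AGAACA was found in 4 of the 15 member windows (26.7%) and in 18.97% of all windows, and the 4 windows belonged to *Sgk1* and *Tsc22d3* alone. The fifth *Sgk1* start held 3 half-sites, of which the paired element makes up a pair and the other overlaps an E-box CACGTG. *Fkbp5* also held an E-box, a motif present in 7.15% of all windows. The best known response elements of *Fkbp5* lie in its introns, which these windows do not cover.

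Metal response cores were found in 3 of the 15 member windows (20%), a lower share than the 25.7% of all windows. These were the windows of *Mt1*, *Mt2* and the sixth *Sgk1* start. *Mt2* held 4 cores and *Mt1* held 3, and 1.97% of all windows held at least 3. Relative to the first base of the RefSeq transcript, the cores in *Mt1* began 23 bases before it and 2 and 20 bases after it. In *Mt2* they were spread from 223 bases before that base to 4 bases after it. The RefSeq starts lie at 94179089 for *Mt1* and 94172618 for *Mt2*, while GENCODE M21 starts the genes at 94179082 and 94172664. Distances from any other *Mt1* start were not computed. Both windows end 50 bases after the RefSeq start, so cores further downstream, near a later start, would be missed. The second *Errfi1* window held the cAMP response element, which 1.79% of all windows had, and a TATA box TATAAA 28 bases before the start, a motif present in 13.6% of all windows. TATA boxes also stood in the windows of the fourth and sixth *Sgk1* starts. No match to any of these motifs was found in the *Klf9* window, and a match describes the letters and not binding.

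**Figure D1:**
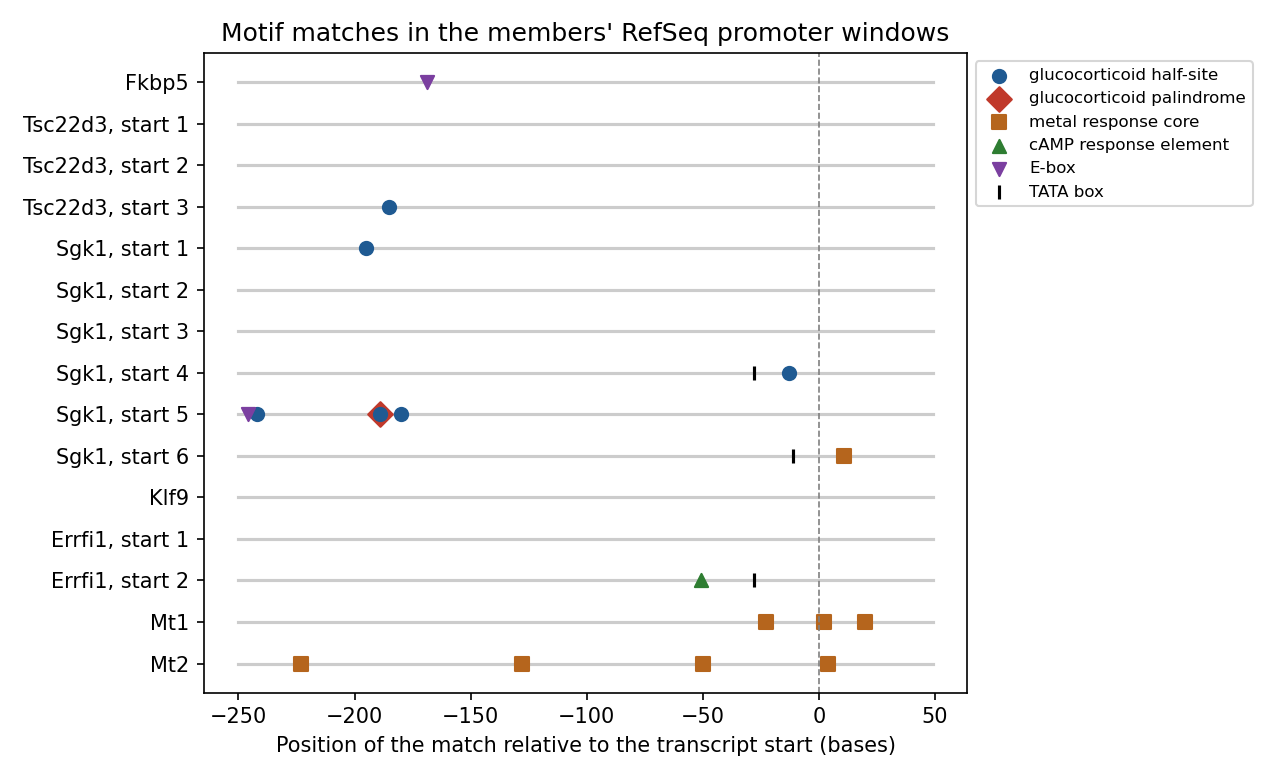
Motif matches in the 15 RefSeq promoter windows of 7 members. The horizontal axis is the position of the first base of each match relative to the transcript start in bases, each grey line is 1 window, and each symbol is 1 match on either strand. Within the windows, the cores of *Mt1* lie near its RefSeq start, and those of *Mt2* are spread more widely. Sequence past the end of a window was not searched. The paired element lies in the fifth *Sgk1* window.

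Among the members, *Errfi1* was by far the most abundant. It encodes MIG6, a feedback inhibitor of the EGF receptor, and lies on chromosome 4 from 150853919 to 150868892 on the plus strand. Its mean normalized count was 57677, which was 0.192% of the sum over all genes and 73.6% of the sum over the 8 members. By reads it ranked 63 of 24421 genes. *Tat*, the tyrosine aminotransferase and a classic glucocorticoid target of liver, ranked 65 with 56732. Per kilobase of its longest transcript, the scale on which levels of single genes are set against each other below, the level of *Errfi1* was 18954, against 23887 for *Tat*.

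The metallothioneins came next on the scale per kilobase. *Mt1* and *Mt2* are neighbours on chromosome 8, where *Mt2* runs from 94172664 to 94173568 and *Mt1* from 94179082 to 94180327, with 5513 bases between them. The mean normalized count was 5650 for *Mt1* and 4474 for *Mt2*, and together the pair took 0.0337% of the sum over all genes. Which of them was higher per length depended on the transcript. With the longest transcripts, of 1085 and 511 bases, *Mt1* had 5208 per kilobase and *Mt2* 8756, so that *Mt1* was at 0.595 of *Mt2*. The longest *Mt1* transcript keeps its introns. With the principal transcripts of the annotation *Mt1* had 10292 per kilobase and *Mt2* again 8756, a ratio of 1.18. No order between these genes can be given from the pooled values. Exons of *Mt2* share 432 bases with *Gm45774* on the opposite strand, which is not among the genes that the authors listed. The sources used here do not say whether reads were counted by strand. The similar coding sequences of the metallothioneins are a further reason to treat their single values as uncertain.

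Relatives of these genes were at or close to 0. *Mt3*, a metallothionein of the brain, had a mean normalized count of 0.182 and *Mt4*, which belongs to stratified epithelia, was listed at 0. Of the metallothioneins followed here, *Mt1* and *Mt2* were those with a mean above 10.

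Regulators of the receptor and of transcription formed the middle of the order. *Klf9*, a zinc finger transcription factor on chromosome 19 from 23141226 to 23168134, had a mean normalized count of 4129. *Tsc22d3*, which encodes the anti-inflammatory protein GILZ and lies on chromosome X from 140539528 to 140600659 on the minus strand, had 2658. Per kilobase they were level, with 920 for *Klf9* and 924 for *Tsc22d3*. With the principal transcript *Tsc22d3* reached 1346, since its principal transcript is shorter than its longest, while *Klf9* did not move.

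*Fkbp5* encodes FKBP51, a co-chaperone that lowers the affinity of the receptor for its hormone and closes a feedback loop. It lies on chromosome 17 from 28399094 to 28517527 on the minus strand, and the exons of its 15 annotated transcripts fall into 21 blocks. Its mean normalized count was 2156, or 559 per kilobase, which by reads put it at percentile 92.02 of all genes. *Fkbp4*, its relative that favours receptor transport to the nucleus, had 1169 per kilobase. *Nr3c1*, the receptor itself, had 385 per kilobase, below *Fkbp5*. By reads the order was reversed, with a mean normalized count of 2476 for *Nr3c1*.

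*Sgk1* and *Zbtb16* closed the order. *Sgk1*, a kinase induced by serum and glucocorticoids, lies on chromosome 10 from 21882184 to 21999903 and had a mean normalized count of 1177, or 380 per kilobase. Its relative *Sgk2* had 595 and *Sgk3* had 104 per kilobase. *Zbtb16* encodes the transcriptional repressor PLZF and lies on chromosome 9 from 48654297 to 48836222 on the minus strand. With a mean normalized count of 428, or 83.7 per kilobase, it was the one member below the median of expressed genes, which was 440 by reads and 129 per kilobase over the genes with a mean above 10. It stood at percentile 73.1 of all genes by reads but at percentile 49.4 of the 12971 genes above that mean.

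**Figure D2:**
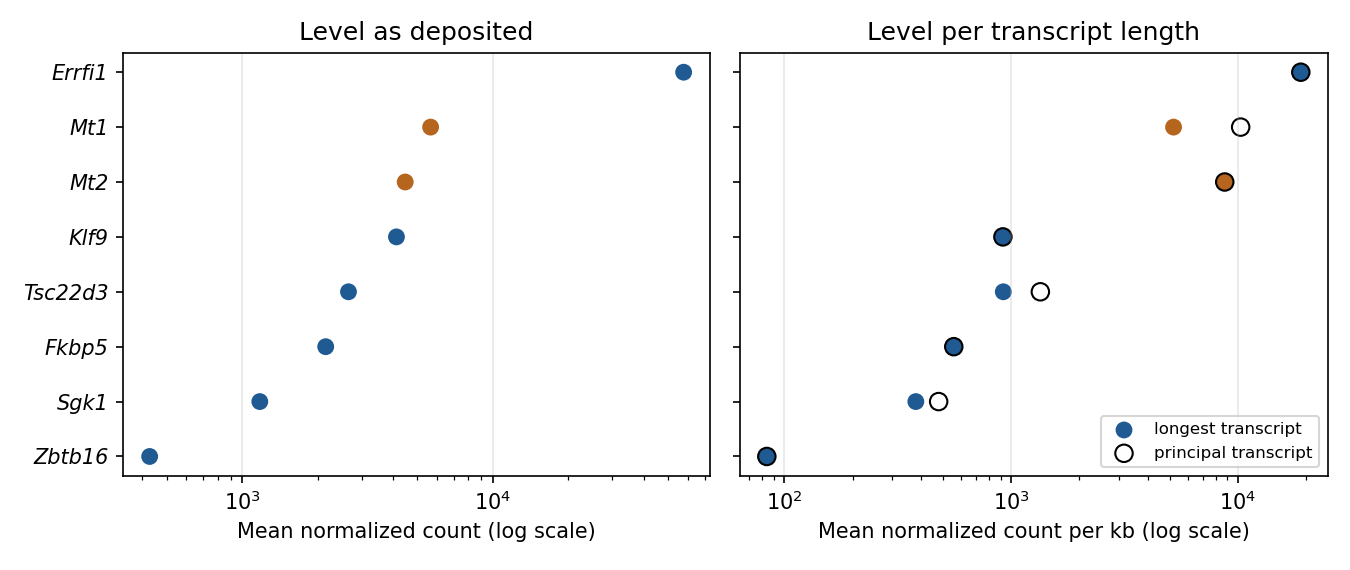
Level of each member over all libraries of both genotypes. The left panel shows the mean normalized count and the right panel the same value per kilobase of the longest transcript (filled) or the principal transcript (open), both on log axes. The metallothioneins are brown. *Errfi1* is highest and *Zbtb16* lowest in both panels, and *Mt1* moves from 5208 to 10292 per kilobase with the transcript.

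As a group the members were abundant. All 8 had a mean above 10, as did 12971 of all 24421 genes. Their median mean normalized count was 3393. Their median percentile was 94.7 among all genes and 90.0 among the genes above that mean. The median per kilobase of the members was 922, with *Errfi1* and *Zbtb16* 226-fold apart. The 8 genes together held 0.261% of all normalized reads, and 0.0688% without *Errfi1*.

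**Figure D3:**
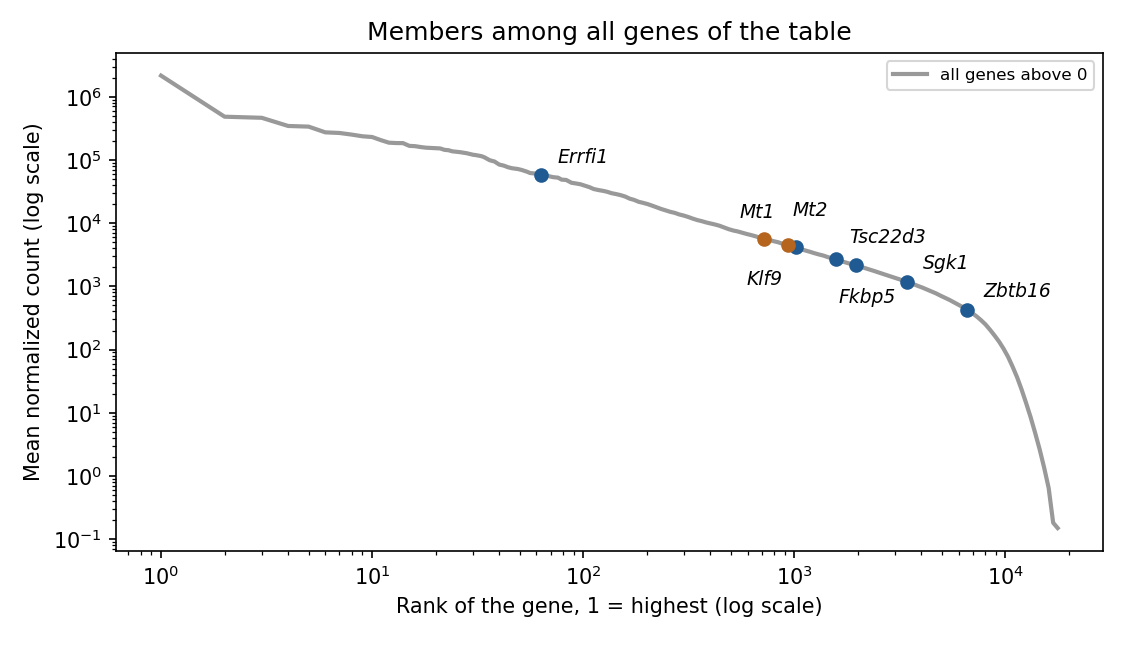
Mean normalized count of every gene above 0 against its rank, both on log axes, with the members marked. *Errfi1* ranks 63, *Mt1*, *Mt2*, *Klf9*, *Tsc22d3* and *Fkbp5* fall between rank 722 and rank 1950, and *Sgk1* and *Zbtb16* follow at ranks 3402 and 6568.

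The machinery that supplies the hormone and its receptor was present in these livers. Of 15 genes, 14 had a mean above 10, and the median was 883 per kilobase, close to the 922 of the members. *Hsd11b1*, which regenerates active glucocorticoid inside hepatocytes, had 8444 per kilobase, and *H6pd*, which supplies its cofactor, had 3088. *Hsd11b2*, the enzyme that inactivates the hormone in kidney, had 0.274 per kilobase. The circulating carrier of corticosterone, *Serpina6*, had 3415, and the chaperone *Hsp90ab1* had 11507. The mineralocorticoid receptor *Nr3c2*, at 43.7 per kilobase, was below *Nr3c1*.

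A further 15 genes known to respond to glucocorticoids in liver all had a mean above 10, with a median of 2106 per kilobase. The highest were the metabolic enzymes *Pck1* of gluconeogenesis with 56646, *Tat* with 23887 and *Tdo2* of tryptophan breakdown with 15498 per kilobase. The lowest were *Rgs2*, a regulator of G protein signalling, with 29.4, and *Ddit4*, an inhibitor of mTORC1, with 98.2 per kilobase. *Errfi1* lay between *Tat* and *Tdo2* in this order, and *Per1* with 300 and *Dusp1* with 567 per kilobase lay near *Sgk1* and *Fkbp5*.

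Of 10 genes of zinc and metal handling, 8 had a mean above 10, and their median was 192 per kilobase. *Cp*, the copper carrier ceruloplasmin secreted by hepatocytes, was highest with 10635. The zinc importer *Slc39a14* had 1280, the zinc exporter *Slc30a1* 293 and *Mtf1*, the factor that reads zinc, 67.0 per kilobase. Among 13 close relatives of the members the median was 161 per kilobase, and the highest was *Klf15* with 2106, above *Klf9*. The lists overlap, so their medians are not independent. *Mt3* and *Mt4* count among both the metal genes and the relatives. *Klf15* is also among the other glucocorticoid-responsive genes, and *Fkbp4* among the genes of hormone supply and receptor.

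**Figure D4:**
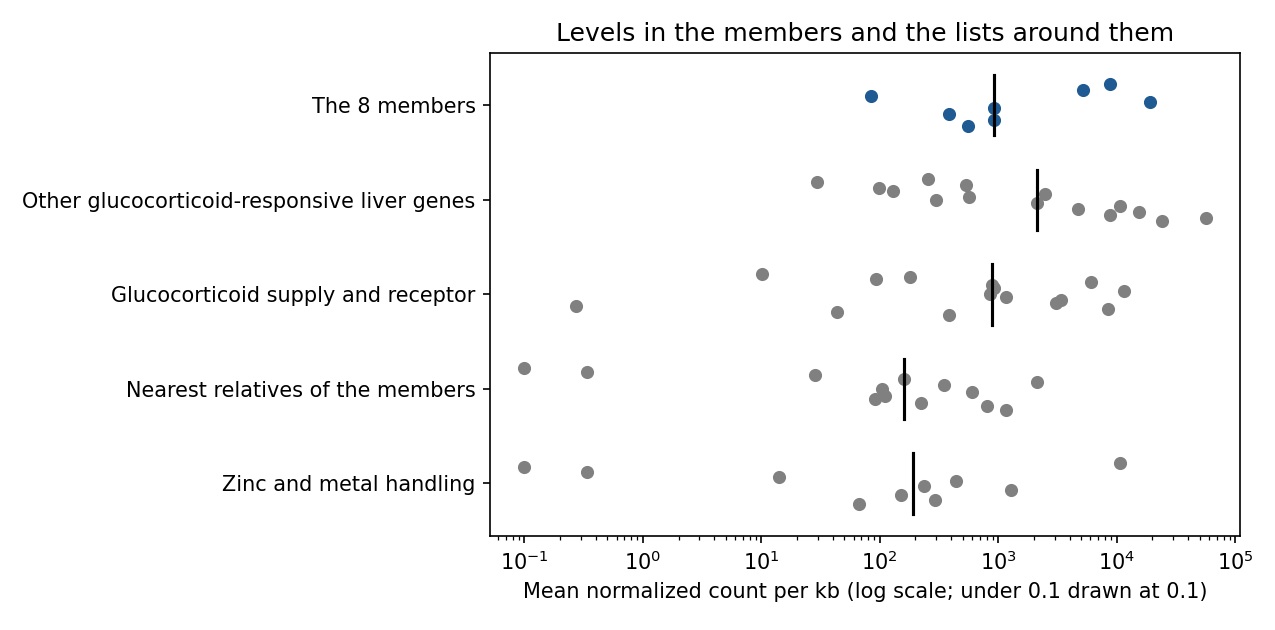
Mean normalized count per kilobase of the longest transcript for the members and 4 lists of genes around them, on a log axis. Each point is 1 gene, and the vertical line is the median of a list, which is 922 for the members. A gene that belongs to more than 1 list is drawn in each. Values under 0.1 are drawn at 0.1.

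The highest of the cell type markers were those of hepatocytes. The 8 hepatocyte markers had mean normalized counts from 14011 to 2155550, and *Alb* was the most abundant gene of all. Markers of Kupffer cells summed to 5426, of endothelial cells to 3657, of stellate cells to 5930 and of cholangiocytes to 437. *Dcn* made up 4160 of the stellate sum and *Sox9* 268 of the cholangiocyte sum. Each of these markers was thus detected, and the part of such cells in the members' levels was not tested. Of the adrenal cortex markers *Cyp11b1* was listed at 0, *Cyp11a1* at 0.335 and *Star* at 39.2, and the skeletal muscle markers did not exceed 3.24. Of the pancreas markers *Amy2a5* was listed at 0, while *Prss2* had 15.4 and *Cela1* had 242. The mean normalized counts of all genes summed to 30045982, and 16.8% of this sum fell to the 10 highest genes.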

How the data were processed

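Total RNA of liver was made into mRNA libraries with KAPA mRNA HyperPrep kits and sequenced as 75-base single-end reads. The authors aligned them to mm10 with STAR and ran DESeq2 in the RNA Express application. The submitters' processing notes also name HOMER. Versions, gene annotation and strand setting are not given in the sources used here.

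The signal analysed is, per gene, an average that the authors deposited for all libraries together, taken after each library's counts were divided by its size factor. The same table holds the log2 fold changes, standard errors, Wald statistics, p-values and adjusted p-values of their own comparison, and these were not used. The 6 columns of the count table were not used, because their headings match no label, so the planned edgeR test was not run. The targeted gene is not reported here. Depth per library, which only those columns would give, is therefore not given.

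Computed here were ranks, percentiles (the share of other genes with a lower value), list medians and levels per kilobase of the longest transcript in GENCODE M21 on GRCm38, where 95.5% of symbols matched 1 gene. As alternatives, coding length was used and, chosen after the data were seen, principal (APPRIS) transcripts and lengths less the read length. Named were all members and, of the lists of relatives, receptor, target and metal genes, mainly the highest and lowest; the others were chosen after their values were seen. Members and lists were chosen with earlier results of these data known. Functions were tested on simulated data. Python 3.11.15, NumPy 2.4.6, pandas 2.3.3 and Matplotlib 3.10.9 were used.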

Additional observations from a re-analysis of the deposited data

How the results depend on the processing

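The median percentile of the 8 members, 94.7 among all genes, was 92.6 among genes above 0 and 90.0 among genes with a mean above 10. Per kilobase it was 93.3 with the longest transcripts, 95.9 with coding lengths, 93.1 with lengths less the read length and 92.5 with principal transcripts, the last pair chosen after the data were seen. The ratio of the highest to the lowest member, 135 by reads, was 226 per kilobase of the longest or principal transcript, 197 with coding lengths and 229 with lengths less the read length. *Errfi1* was highest and *Zbtb16* lowest under each of these settings. *Mt1* was above *Mt2* by reads and with principal transcripts but below it under the other settings. The coding setting took the longest annotated coding length, 396 bases for *Mt1* and 228 for *Mt2*. That length was taken over all transcripts of a gene and need not be that of its principal transcript. Short transcripts such as those of the metallothioneins offer few places where a whole read can start, and their level per kilobase is then understated.

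No paired analysis was possible because no count column was matched to a mouse. For the same reason the DESeq2 and edgeR fits, the fit without a filter and the fits that leave out a replicate were not run, and no precision is given for any level.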
